A study of Mus musculus with 60 samples.

Results

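The genes described here make or feed the DNA replication machinery. They were chosen by name, as 42 gene symbols covering origin recognition, origin licensing, the replicative helicase, the polymerases, the sliding clamp and its loader, single-strand binding, fragment joining and the supply of DNA precursors. All 42 were found among the 15092 gene symbols on the arrays, through 43 of 21689 probes: 33 genes lay on array part I and 9 on array part II, and Mcm10 had 2 probes. The choice used no measured value of these arrays, although results of the same arrays were known when the genes were listed.

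The series holds 2-colour spotted arrays of 5 mouse cell lines: IM2, which was not transfected, and 4 transfected lines. The transgene is wild-type pabpn1 in WTA (labelled high) and WTD (labelled low). It is mutant pabpn1 in D7E (high) and D7F (low). The labels name OPMD (oculopharyngeal muscular dystrophy, which is caused by expanded PABPN1) and give neither the tissue of origin nor the mutation. The PABPN1 protein coats newly made poly(A) tails. There is only 1 line for each combination of genotype and level, so what belongs to a line and what belongs to its transgene cannot be told apart. Each line was grown as 3 cultures, and each culture was compared with 1 common IM2 reference on 2 array parts with both dye orientations, which made 4 arrays per culture and 60 in all.

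Before S phase, the origin recognition complex, Cdc6 and Cdt1 load the Mcm2-7 helicase onto origins, and geminin (Gmnn) blocks a second loading by binding Cdt1. In S phase, Cdc7 kinase, Cdc45 and the GINS complex activate the helicase, and Mcm10 acts with them. Polymerase alpha with primase then starts new strands, and polymerases delta and epsilon extend them with the Pcna clamp, which replication factor C loads. Fen1 and ligase 1 join the fragments of the lagging strand. Replication protein A (Rpa1-3) covers the exposed single strands. Ribonucleotide reductase (Rrm1 and Rrm2), thymidine kinase 1 and thymidylate synthase make the deoxynucleotides. Many of these genes are transcribed in late G1 and S phase under E2F factors and are low in cells that have stopped dividing.

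All values below are log2 ratios of a culture to the IM2 reference, averaged over both dye orientations, and a difference is the mean of the cultures of 1 line, or of the 4 transfected lines, minus the mean of the IM2 cultures. The deposited log ratios were taken to be in base 10, so each size holds only if that is so. Signs and calls do not depend on it. A gene is said to have fallen or risen where limma's Benjamini-Hochberg adjusted p, over all 9706 tested probes, was under 0.05. Of the arrays, between 82.4% and 99.9% of rows were filled on part I and between 46.0% and 99.4% on part II. Between 0.721% and 28.7% of filled values on part I, and between 2.76% and 33.2% on part II, lay at the limits of the deposited scale and were treated as not measured. Both dye orientations of a culture correlated across probes with r between -0.10 and 0.25 in the 12 transfected cultures on part I. In the IM2 cultures, where culture and reference are the same line, the range was -0.35 to -0.17, and the sign their ratios carry was not established. On part II, r ran from -0.003 to 0.185 in the transfected cultures and from -0.099 to 0.008 in the IM2 cultures. On part I, 24 of 24 arrays of transfected lines gave a Pabpn1 ratio above the reference, so their ratios were read as culture over reference. No Pabpn1 probe was found on part II, where the same reading was used without this check. Among the genes called below, Cdt1, Rfc4, Rfc5, Rpa1 and Rpa3 lie on part II.

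Of the 42 genes, 33 had a probe measured well enough to be tested, meaning in at least 2 cultures of every line. In the mean of the 4 transfected lines, 11 of the 33 fell relative to IM2: Cdt1, Gmnn, Mcm3, Mcm4, Mcm5, Pola1, Pold1, Rfc4, Rfc5, Rpa3 and Rrm2. None of the 33 rose by limma. The 11 genes are 33.3% of those tested, while 8.85% of all tested probes fell and 6.41% rose. At an unadjusted p under 0.05, 17 of the 33 differed in either direction, against 30.7% of all tested probes. The median difference of the 33 was -0.34, against 0.03 for all tested probes, and 25 of the 33 lay below 0, against 46.8% of all probes. Without D7E culture 1, 7 of the genes were called. Gmnn, Mcm3 and Pola1 could not then be tested. In D7E culture 2 each lay at the lower limit on at least 1 dye array and counted as not measured. In RNA from whole cultures, fewer cells in S phase and less RNA per cell cannot be told apart.

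**Figure D1:**
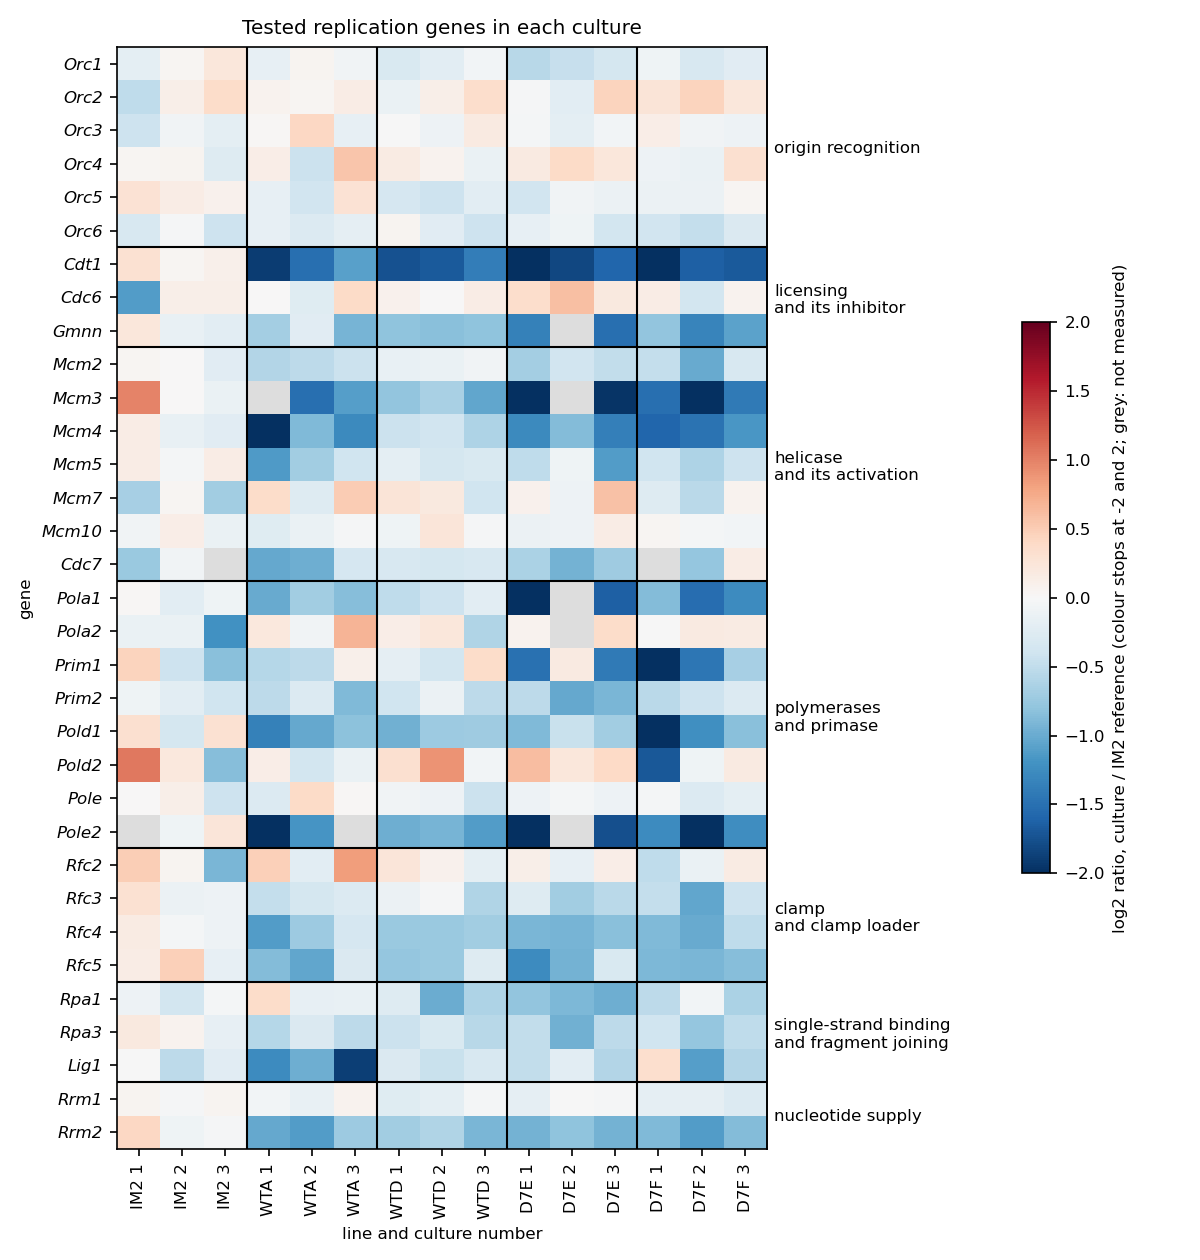
Heat map of the log2 ratio of each culture to the IM2 reference for the 33 tested replication genes (rows, ordered by role) in the 15 cultures (columns, 3 per line). Blue is below and red above the reference, the colour stops at -2 and 2, and grey cells were not measured. The row of Cdt1 is blue in all 12 transfected cultures, whereas the rows of the Orc genes are pale in all lines.

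For 12 genes, every measured transfected culture lay below every measured IM2 culture. These were the 11 genes that fell and Pole2, or 36.4% of the 33, against 6.79% of all tested probes. In each culture, the median over the tested genes gives a single figure: it was -0.04 ± 0.10 (SD, n = 3) in IM2. Of the mutant lines, D7F stood at -0.47 ± 0.15 and D7E at -0.42 ± 0.17, and of the wild-type lines, WTA stood at -0.37 ± 0.14 and WTD at -0.29 ± 0.03. D7E culture 2 (-0.22) covers 28 of the genes, without Gmnn, Mcm3, Pola1, Pola2 and Pole2, while the other cultures cover 32 or 33. The figure of D7E therefore does not rest on the same genes as those of the other lines. The distribution of differences shows where these genes lay among all probes.

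**Figure D2:**
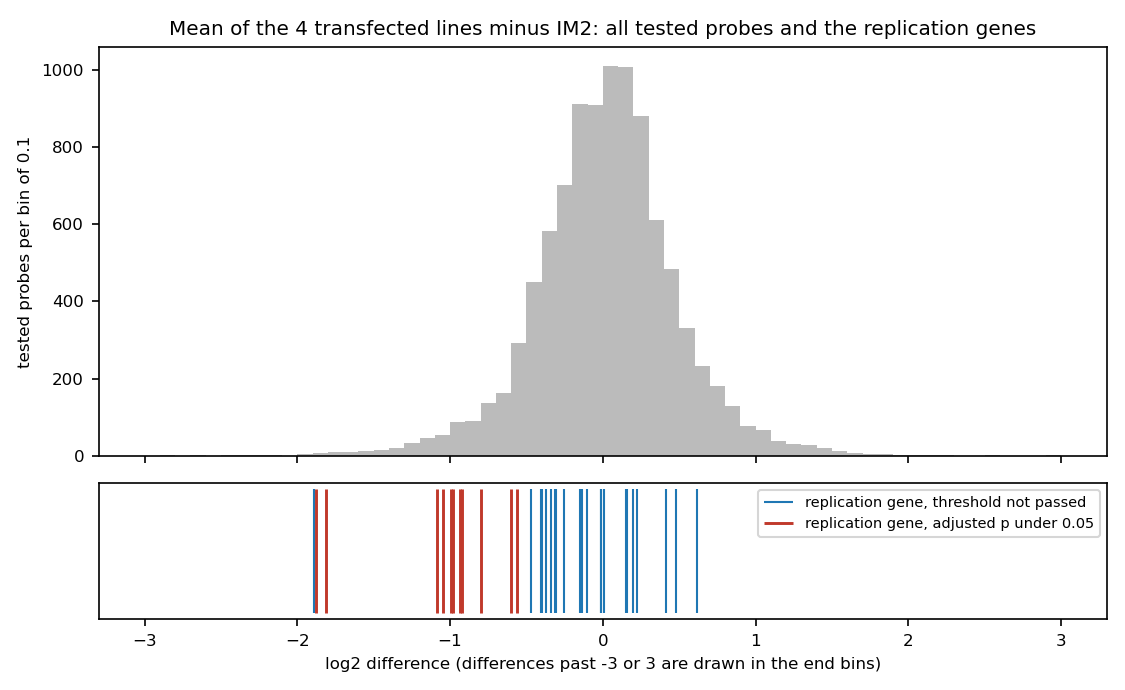
Differences between the mean of the 4 transfected lines and IM2 (log2). The upper panel counts all 9706 tested probes per bin of 0.1, and the lower panel marks the 33 tested replication genes, red where the adjusted p was under 0.05. The 11 red marks run from -1.88 to -0.56, while the highest blue mark, Pola2, lies at 0.62.

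Promoter sequences are shown first for the genes that fell, since E2F factors bind many promoters of this pathway. RefSeq promoter windows of build GRCm38.p6 (250 bases before to 50 after each gene's start, 300 in all) were found for 36 of the 42 genes. They were searched on both strands for the E2F-type letters TTTCCCGC, TTTCGCGC, TTTGCCGC and TTTGGCGC. Of the 36 genes, 13 held at least 1 match (36.1%), against 2.60% of all 27025 genes in the table and 4.29% of the 6430 genes with a tested probe. Of the 11 genes that fell, 9 had a window, and 5 of these 9 held a match: Cdt1, Mcm3, Mcm5, Pola1 and Pold1. Matches also lay in 7 of the 19 genes that were tested and did not pass the threshold (Orc1, Orc3, Cdc6, Mcm7, Pole2, Rfc3 and Lig1) and in 1 of the 8 that were not tested (Mcm6). A match is a description of letters and not a measured binding site.

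The matches of Cdt1, Mcm3, Mcm5 and Pold1 are printed in stretches of 30 bases, in the direction of the gene, with the matching letters in capitals. The Cdt1 stretch is chr8:122568035-122568064 (+ strand), with the match 33 bases into the transcript. The Mcm3 stretch is chr1:20820265-20820294 (- strand) and holds 2 matches, on opposite strands. The Mcm5 stretch is chr8:75109347-75109376 (+ strand), upstream of the start, and its 2 matches overlap. The Pold1 stretch is chr7:44548766-44548795 (- strand).
Cdt1: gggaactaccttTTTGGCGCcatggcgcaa
Mcm3: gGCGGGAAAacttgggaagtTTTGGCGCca
Mcm5: gccaagaacTTTCGCGCCAAAacgtccagc
Pold1: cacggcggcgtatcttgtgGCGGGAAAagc

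For Pola1 and Rrm2 the 250 bases before the start are printed, because Pola1 was the gene called between the transfected lines and Rrm2 fell in each of them. The Pola1 stretch is chrX:93632156-93632405 (- strand), and its capitals mark the E2F-type match that begins 138 bases before the start. The Rrm2 stretch is chr12:24708004-24708253 (+ strand). The Rrm2 window held none of the E2F-type letters, and its capitals mark the CCAAT letters, which are found in 41.1% of all genes in the table and in 61.1% of the 36 replication genes.
Pola1: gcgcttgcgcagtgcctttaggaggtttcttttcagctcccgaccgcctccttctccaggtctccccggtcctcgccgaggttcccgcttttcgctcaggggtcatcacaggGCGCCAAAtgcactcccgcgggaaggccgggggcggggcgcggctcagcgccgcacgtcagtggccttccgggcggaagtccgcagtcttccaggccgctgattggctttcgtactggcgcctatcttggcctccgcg
Rrm2: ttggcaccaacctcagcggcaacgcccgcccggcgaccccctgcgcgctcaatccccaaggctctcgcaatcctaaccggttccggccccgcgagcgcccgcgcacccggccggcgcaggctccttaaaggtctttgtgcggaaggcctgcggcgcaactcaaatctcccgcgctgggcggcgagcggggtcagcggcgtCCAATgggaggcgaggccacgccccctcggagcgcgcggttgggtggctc

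Among the genes of origin recognition, none of the 6 subunits of the origin recognition complex fell or rose in the mean of the transfected lines. Their differences ran from -0.34 (Orc5, adjusted p = 0.0878) to 0.23 (Orc3, adjusted p = 0.229), with a median of 0.08. Orc1, the largest subunit, read -0.20, 0.04 and 0.23 in the 3 IM2 cultures and -0.56, -0.47 and -0.36 in the D7E cultures. In D7E it fell by 0.48 (SE 0.13, adjusted p = 0.0304). It read -0.17, 0.06 and -0.07 in WTA, -0.31, -0.22 and -0.05 in WTD, and -0.08, -0.33 and -0.23 in D7F. Only the D7E cultures all lay below every IM2 culture. The D7E call was lost without IM2 culture 3 (difference -0.38, adjusted p = 0.0869), without D7E culture 1 (adjusted p = 0.0883) and without D7E culture 2 (adjusted p = 0.0723).

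At the licensing step, Cdt1, the loader of the Mcm helicase, and Gmnn, its inhibitor, both fell, while Cdc6, their partner at the origin, did not pass the threshold. Cdt1 read 0.30, 0.04 and 0.11 in IM2. In WTA it read -1.90, -1.50 and -1.09, and in WTD -1.73, -1.68 and -1.38. In D7E it read -2.09, -1.82 and -1.59, and in D7F -2.65, -1.63 and -1.68. The highest transfected culture lay 1.12 below the lowest IM2 culture, and the 4 lines overlapped each other. The mean difference was -1.88 (SE 0.21, adjusted p = 0.000114), a 3.67-fold lower ratio. Cdt1 was below the reference on 24 of 24 transfected arrays, with medians of -1.65 in the 12 arrays with the culture in Cy3 and -1.78 in the 12 with the culture in Cy5. The IM2 arrays had medians of 0.52 with the culture in Cy3 and -0.37 in Cy5, so their sign differed with the dye.

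Gmnn read 0.23, -0.15 and -0.22 in IM2. It read -0.68, -0.23 and -0.92 in WTA, -0.80, -0.83 and -0.81 in WTD, -1.35 and -1.51 in the 2 measured D7E cultures, and -0.79, -1.33 and -1.08 in D7F. The IM2 and transfected cultures did not overlap, but WTA culture 2 lay just under the lowest IM2 culture, and WTA alone did not pass the threshold (difference -0.57, adjusted p = 0.0827). The WTD call ended without IM2 culture 1 or any 1 WTD culture (adjusted p = 0.0864 to 0.101), and the D7F call without D7F culture 2 (adjusted p = 0.0556). Gmnn differed from IM2 by -0.94 on average (SE 0.15, adjusted p = 0.00283). Cdc6 read -1.12, 0.11 and 0.12 in IM2, a spread wider than its range over the 12 transfected cultures, which ran from -0.36 to 0.61. Its difference was 0.41 (SE 0.23, adjusted p = 0.250).

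**Figure D3:**
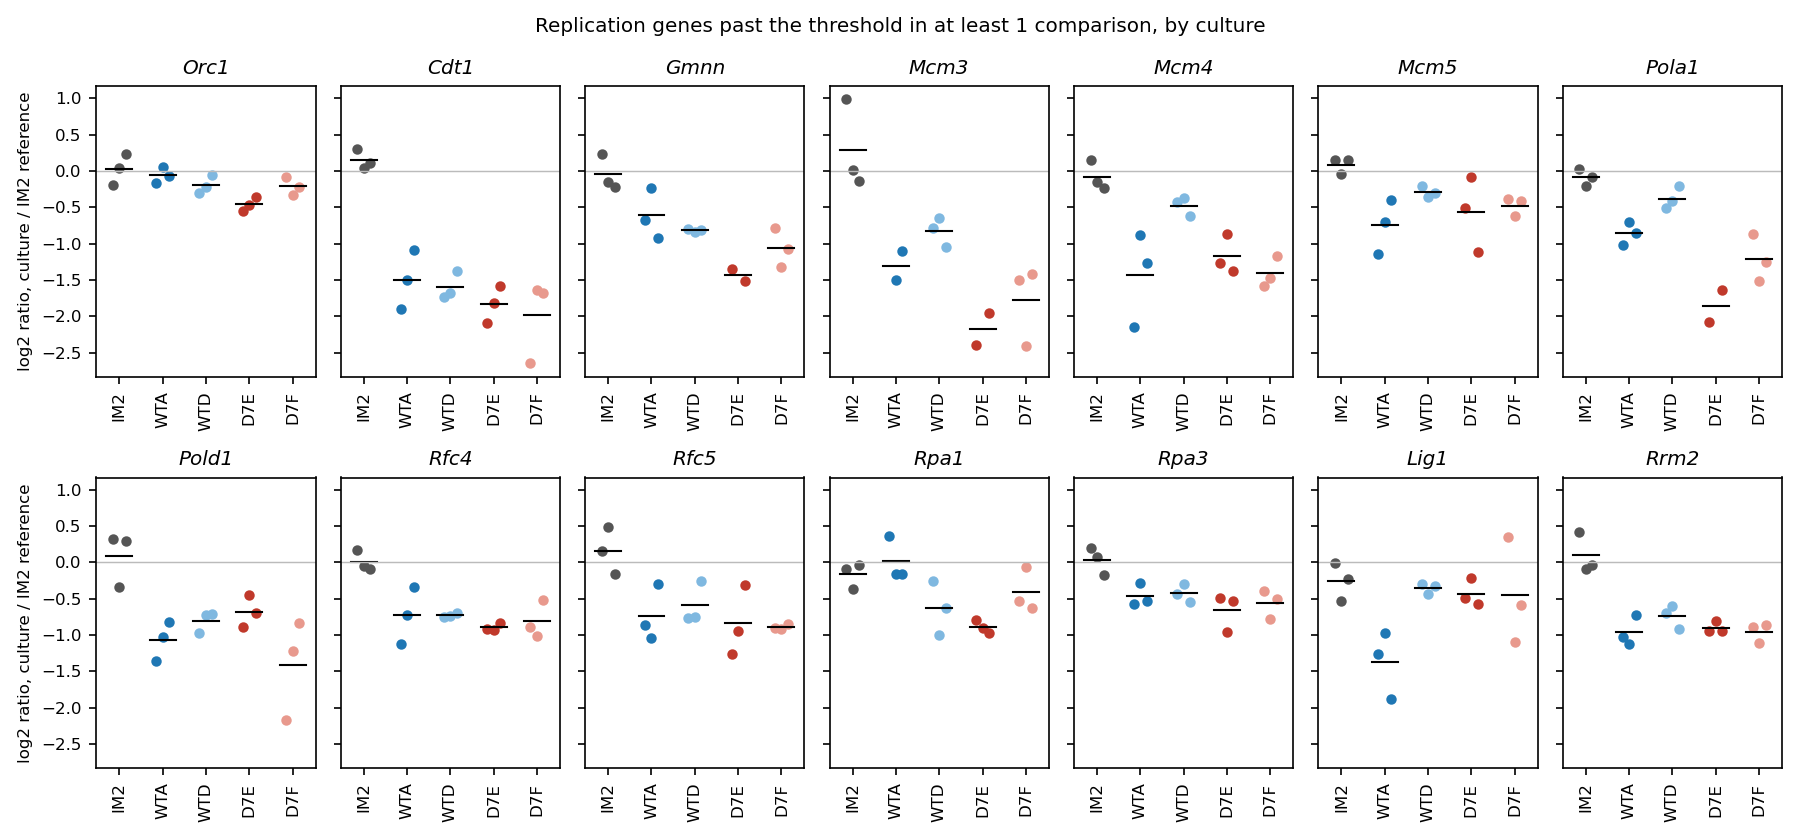
Log2 ratio to the IM2 reference of each culture (points) for the 14 replication genes past the threshold in at least 1 comparison, with the mean of each line (bar). IM2 is grey, the wild-type lines are blue, the mutant lines are red, and the paler shade is the line labelled low. For Cdt1 the 12 transfected points lie between -2.65 and -1.09, below the IM2 points at 0.04 to 0.30.

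In the helicase, the 6 Mcm2-7 subunits form a single ring, yet their probes differed. Mcm3, Mcm4 and Mcm5 fell, Mcm2 and Mcm7 did not pass the threshold, and Mcm6 could not be tested. Mcm3 read 0.99, 0.01 and -0.13 in IM2. It read -1.50 and -1.11 in the 2 measured WTA cultures, -0.78, -0.65 and -1.04 in WTD, -2.40 and -1.96 in the 2 measured D7E cultures, and -1.50, -2.41 and -1.42 in D7F. All 10 measured transfected cultures lay below the IM2 cultures, and the WTD cultures lay nearest to them. Averaged over the lines, Mcm3 differed by -1.81 (SE 0.27, adjusted p = 0.00220), a 3.51-fold lower ratio.

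Mcm4 read 0.14, -0.15 and -0.23 in IM2 and -2.15, -0.88 and -1.27 in WTA. It read -0.43, -0.38 and -0.62 in WTD, -1.27, -0.87 and -1.37 in D7E, and -1.58, -1.48 and -1.17 in D7F. The WTD cultures lay between IM2 and the other 3 lines without overlapping either. The mean difference was -1.04 (SE 0.21, adjusted p = 0.00704). WTD alone did not pass the threshold (difference -0.40, adjusted p = 0.413), and the difference among the 4 lines did not pass it either (limma F test, adjusted p = 0.180). The D7E call ended without IM2 culture 1, D7E culture 1 or D7E culture 3 (limma, adjusted p = 0.0584 to 0.0653). The D7F call ended without IM2 culture 1, D7F culture 1 or D7F culture 2 (limma, adjusted p = 0.0512 to 0.0547).

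Mcm5 read 0.14, -0.04 and 0.15 in IM2. It read -1.14, -0.70 and -0.40 in WTA, -0.20, -0.36 and -0.30 in WTD, -0.50, -0.09 and -1.12 in D7E, and -0.39, -0.62 and -0.42 in D7F. D7E culture 2 lay closest to IM2, below its lowest culture. Averaged over the lines, Mcm5 differed by -0.60 (SE 0.18, adjusted p = 0.0452), just inside the threshold. Leaving out any 1 of IM2 cultures 1 and 3, WTD cultures 1 to 3, D7E culture 1 or D7F cultures 1 to 3 ended this call. The adjusted p was then 0.0535 to 0.132, while the difference stayed between -0.61 and -0.57.

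Mcm2 lay lower in the transfected lines on average without passing the threshold, with a difference of -0.37 (SE 0.13, adjusted p = 0.0657). WTD differed from IM2 by -0.05 in Mcm2 and the other 3 lines by -0.54 to -0.45. Mcm7 lay higher, at 0.48 (SE 0.23, adjusted p = 0.171). Its call changed without IM2 culture 2, where the difference was 0.72 (adjusted p = 0.0478). Cdc7, the kinase that fires origins, differed by -0.14 (SE 0.25, adjusted p = 0.751). One Mcm10 probe differed by -0.01 (SE 0.11, adjusted p = 0.958), and the other was measured in 0 of the 15 cultures.

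Of the 8 tested polymerase and primase genes, Pola1 and Pold1, the catalytic subunits of polymerases alpha and delta, fell. The remaining 6 did not pass the threshold, including the catalytic subunit of polymerase epsilon (Pole, difference -0.01, SE 0.14, adjusted p = 0.971). Pola1 read 0.03, -0.20 and -0.08 in IM2 and -1.01, -0.70 and -0.86 in WTA. It read -0.51, -0.42 and -0.21 in WTD, -2.08 and -1.64 in the 2 measured D7E cultures, and -0.86, -1.52 and -1.25 in D7F. The lines formed steps, with WTD just under IM2, then WTA and D7F, which overlapped, and D7E lowest. Pola1 differed from IM2 by -0.99 on average (SE 0.14, adjusted p = 0.00136).

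Pold1 read 0.33, -0.34 and 0.30 in IM2. It read -1.35, -1.02 and -0.82 in WTA, -0.97, -0.73 and -0.71 in WTD, -0.89, -0.45 and -0.70 in D7E, and -2.17, -1.22 and -0.83 in D7F. The lowest IM2 culture was 0.11 above the highest transfected culture, and the 4 lines overlapped. Pold1 differed from IM2 by -1.08 on average (SE 0.24, adjusted p = 0.0102). Without IM2 culture 1 it was -0.97 with an adjusted p of 0.0520. Both part I arrays of that culture had over 20% of their values at the limits.

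Pole2, the second subunit of polymerase epsilon, showed the largest average difference of all 33 genes, -1.89 (SE 0.61), but did not pass the threshold (adjusted p = 0.0666). It read -0.09 and 0.24 in the 2 measured IM2 cultures and -3.64 to -0.93 in the 10 measured transfected cultures, with a median of -1.25. The groups did not overlap, and the spread within D7F, -3.64 to -1.25, was wider than that of any line for the 11 genes that fell. Pola2, the partner of Pola1, lay higher in the transfected lines without passing the threshold, at 0.62 (SE 0.25, adjusted p = 0.121). Prim1, Prim2 and Pold2 differed by -0.41, -0.31 and -0.10, with adjusted p-values of 0.510, 0.174 and 0.887.

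At the clamp, Rfc4 and Rfc5, small subunits of the clamp loader, fell, and Rfc2 and Rfc3 did not pass the threshold. Rfc4 read 0.17, -0.05 and -0.10 in IM2. It read -1.12, -0.73 and -0.34 in WTA, -0.75, -0.74 and -0.69 in WTD, -0.92, -0.93 and -0.84 in D7E, and -0.89, -1.01 and -0.52 in D7F. The WTA and D7F cultures overlapped those of every other transfected line, while the D7E cultures all lay below the WTD cultures. The means of the 4 lines lay between -0.90 and -0.73. The mean difference was -0.80 (SE 0.15, adjusted p = 0.00346).

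Rfc5 read 0.15, 0.48 and -0.16 in IM2. It read -0.87, -1.04 and -0.29 in WTA, -0.77, -0.75 and -0.25 in WTD, -1.26, -0.94 and -0.31 in D7E, and -0.90, -0.92 and -0.85 in D7F. In each of the 4 lines culture 3 was the highest, and it still lay below the lowest IM2 culture. Rfc5 differed from IM2 by -0.92 on average (SE 0.21, adjusted p = 0.00962). When the IM2 ratios were given the opposite sign, it was -0.60 and the call ended (adjusted p = 0.0566). The Rfc5 calls in WTA, D7E and D7F each ended without IM2 culture 1 (limma, adjusted p = 0.0511 to 0.0837). They also ended without IM2 culture 2 (limma, adjusted p = 0.0505 to 0.0838). Rfc3 differed by -0.47 (SE 0.17, adjusted p = 0.0694), and Rfc2 by 0.20 (SE 0.27, adjusted p = 0.660).

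Among the genes of single-strand binding and fragment joining, Rpa3, the small subunit of replication protein A, fell in the mean of the lines, and Rpa1, the large subunit, and Lig1, the ligase of replication, each passed the threshold in 1 line. Rpa3 read 0.19, 0.08 and -0.17 in IM2. It read -0.57, -0.28 and -0.52 in WTA, -0.43, -0.30 and -0.55 in WTD, -0.49, -0.96 and -0.53 in D7E, and -0.39, -0.78 and -0.51 in D7F. The groups did not overlap. The mean difference was -0.56 (SE 0.13, adjusted p = 0.0141), and without IM2 culture 1 it was -0.48 (adjusted p = 0.0687).

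Rpa1 read -0.10, -0.37 and -0.03 in IM2 and -0.80, -0.90 and -0.97 in D7E. It read 0.36, -0.17 and -0.15 in WTA, -0.25, -0.998 and -0.62 in WTD, and -0.53, -0.06 and -0.63 in D7F. The D7E cultures all lay below IM2, while the WTA, WTD and D7F cultures overlapped it. The D7E difference was -0.72 (SE 0.22, adjusted p = 0.0432). This call ended without any 1 of IM2 cultures 1 and 3, WTD culture 3 or the 3 D7E cultures, where the adjusted p was 0.0547 to 0.110.

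Lig1 read -0.01, -0.53 and -0.22 in IM2 and -1.26, -0.98 and -1.88 in WTA. It read -0.30, -0.44 and -0.32 in WTD, -0.49, -0.22 and -0.58 in D7E, and 0.34, -1.10 and -0.58 in D7F. The WTA cultures lay below IM2 without overlap, and those of WTD, D7E and D7F overlapped it. The WTA difference was -1.12 (SE 0.32, adjusted p = 0.0393). It did not hold without any 1 of IM2 cultures 1 and 3, WTA cultures 1 and 3 or the WTD cultures, where the adjusted p was 0.0520 to 0.104.

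In nucleotide supply, of the 2 ribonucleotide reductase subunits, Rrm2, the small subunit whose level normally follows S phase, fell, and Rrm1, the large and more stable subunit, did not pass the threshold. Rrm2 read 0.41, -0.09 and -0.03 in IM2. It read -1.03, -1.12 and -0.72 in WTA, -0.70, -0.60 and -0.91 in WTD, -0.94, -0.81 and -0.94 in D7E, and -0.88, -1.11 and -0.86 in D7F. The transfected cultures spanned 0.52 log2 units in all and lay at least 0.51 below the lowest IM2 culture. The mean difference was -0.98 (SE 0.12, adjusted p = 0.000387), a 1.98-fold lower ratio. Rrm1 lay between -0.27 and 0.07 in the 12 transfected cultures and between -0.03 and 0.06 in IM2, with a difference of -0.15 (SE 0.08, adjusted p = 0.223).

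The 9 genes that were not tested were Mcm6, Cdc45, Gins1, Pcna, Rfc1, Rpa2, Fen1, Tk1 and Tyms. They were measured in 5 (Rfc1) to 12 (Pcna) of the 15 cultures, and each had a line with fewer than 2. Pcna, the sliding clamp, read 0.42 and 0.08 in the 2 measured IM2 cultures and -0.52 to 1.13, with a median of -0.04, in 10 transfected cultures, so its groups overlapped. When 1 dye orientation was enough for a culture, 8 of the 9 could be tested, and none passed the threshold. Their differences ran from -0.72 (Cdc45, adjusted p = 0.748) to 0.65 (Rpa2, adjusted p = 0.670), and Pcna differed by 0.03 (SE 0.29, adjusted p = 0.967). When 1 culture per line was enough, Rpa2 was called higher (3.32, adjusted p = 0.0397), against a single IM2 culture at -3.20.

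Each line was also set against IM2 alone. These comparisons share the IM2 cultures, so they are not independent of each other. In WTA, 10 of the 33 genes fell (30.3%), against 6.38% of all tested probes. In WTD, 4 fell (12.1%), against 4.96% of all probes. In D7E, 11 fell (33.3%), against 8.22%, and in D7F, 9 fell (27.3%), against 2.92%. None of the 33 rose in any of the 4 lines, where 5.17%, 2.08%, 4.13% and 1.6% of all probes rose in WTA, WTD, D7E and D7F. At an unadjusted p under 0.05 without regard to direction, limma gave 16, 9, 20 and 16 of the 33 in the same order, against 27.1%, 23.0%, 26.3% and 20.7% of all probes. Single cultures moved these counts of genes that fell. They were 4 in WTA without IM2 culture 1 or WTA culture 1, and 2 in WTD without IM2 culture 1 or any 1 WTD culture. In D7E they were 5, 6 and 7 without D7E culture 1, D7E culture 3 and IM2 culture 1, and in D7F 5 without IM2 culture 1 or D7F culture 2.

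Cdt1, Rfc4 and Rrm2 fell in each of the 4 lines. Some of these line calls ended under alternatives that left the call in the mean of the lines in place. All 4 for Cdt1 ended with the Cy5 arrays alone, where WTA differed by -0.98 (adjusted p = 0.280). The Rfc4 call in WTD ended without IM2 culture 1 or 3 or any 1 WTD culture (adjusted p = 0.0504 to 0.0872). The Rfc4 calls in WTA and D7F ended without IM2 culture 1 (adjusted p = 0.0651 and 0.0839), without WTA culture 1 (0.0874) and without D7F culture 1 or 2 (0.0751 and 0.0992). No Cdt1 or Rrm2 line call ended when 1 culture was left out. Cdt1 differed from IM2 by -1.64 and -1.74 in the wild-type lines WTA and WTD, and by -1.98 and -2.14 in the mutant lines D7E and D7F. The corresponding differences of Rfc4 were -0.74, -0.73, -0.90 and -0.81. Those of Rrm2 were -1.06, -0.83, -0.99 and -1.05. Within each of these 3 genes the lines differed from each other by less than their difference from IM2. Among the 11 genes that fell in the mean of the lines, WTD was the line nearest to IM2 for 8, WTA for 2 and D7E for 1. The lowest line was D7E for 5, D7F for 3 and WTA for 3.

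**Figure D4:**
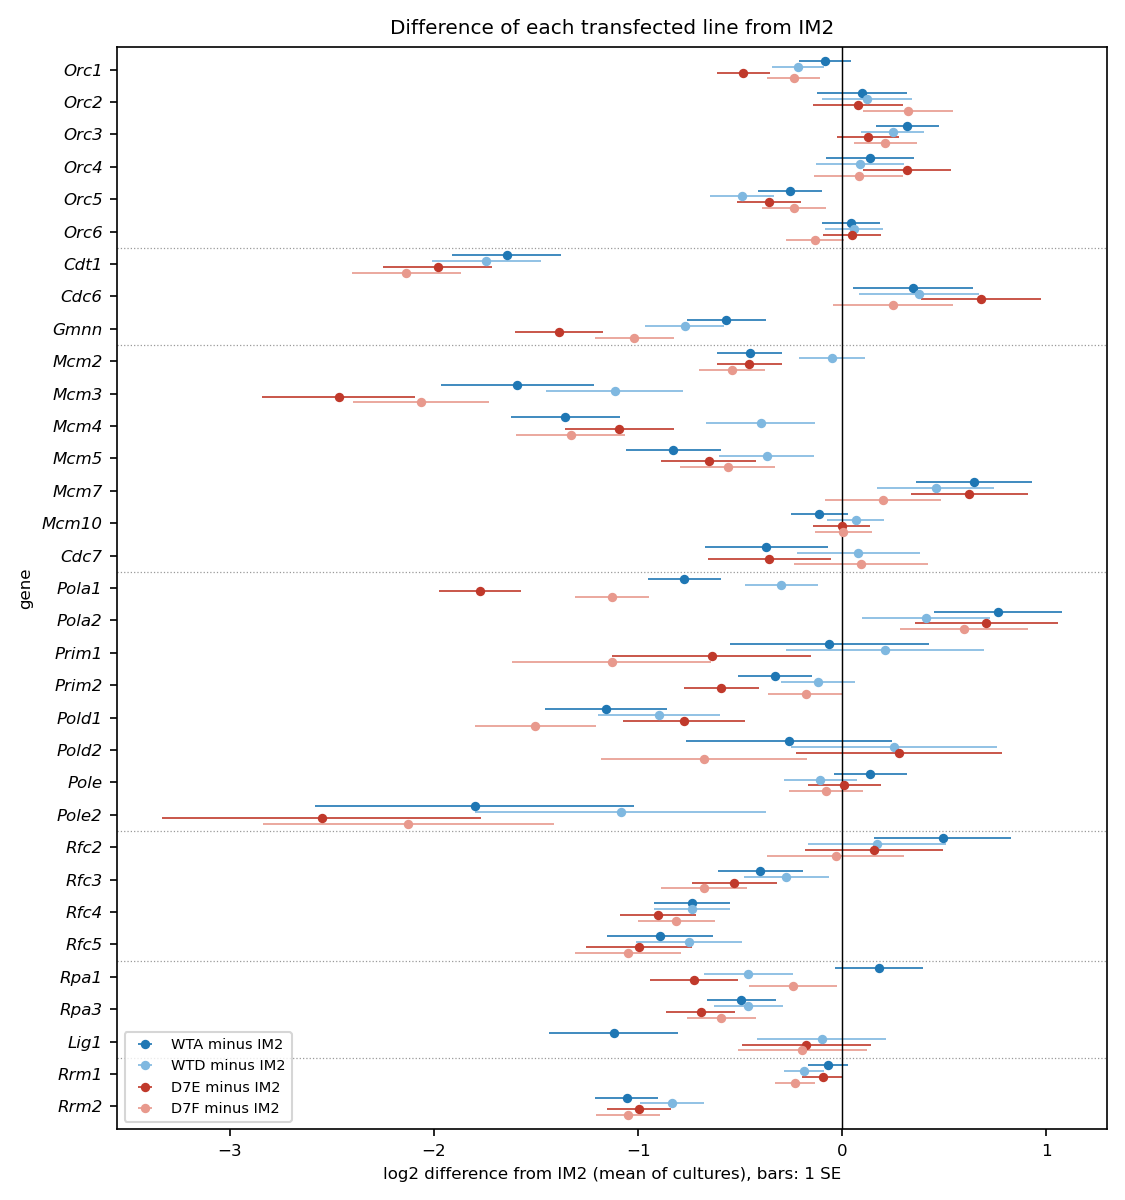
Difference of each transfected line from IM2 (log2, horizontal axis) for the 33 tested replication genes, with bars of 1 SE from the limma model; dotted lines separate the roles. The Cdt1 points lie between -2.14 and -1.64 in all 4 lines, while the Pola1 points spread from -1.78 in D7E to -0.30 in WTD.

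Comparing the transfected lines with each other, Pola1 was the single replication gene with a difference past the threshold. It was lower in the mutant lines than in the wild-type lines by -0.92 (SE 0.14, adjusted p = 0.0212), and it differed among the 4 lines in the F test (adjusted p = 0.0108). Its means were -1.86 ± 0.31 (SD, n = 2) in D7E, -1.21 ± 0.33 (n = 3) in D7F, -0.86 ± 0.16 (n = 3) in WTA and -0.38 ± 0.15 (n = 3) in WTD. D7F culture 1 at -0.86 overlapped the WTA cultures, so the genotypes were not fully separated. The mutant call rests on few cultures: it ended without any 1 of the 3 WTD cultures or without D7F culture 3 (adjusted p = 0.0530 to 0.0708), and without D7E culture 1 or 3 the gene could not be tested. With the culture number as a block, the difference was -0.94 and its adjusted p 0.0543. With 2 lines per genotype, the genotype cannot be told apart from other properties of these lines.

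Between mutant and wild-type lines, 0.196% of all tested probes were called, and Pola1 was 1 of 33 (3.03%). Among the 4 lines in the F test, 1.66% of all probes and again 1 of the 33 were called. Between the lines labelled high (WTA, D7E) and low (WTD, D7F), 0.381% of all probes and none of the 33 were called by limma. On part I, the Pabpn1 log2 ratio of single arrays was 1.87 to 2.61 in WTA and 1.34 to 1.58 in WTD. It was 1.17 to 1.89 in D7E and 0.75 to 1.06 in D7F. D7E, labelled high, thus overlapped WTD, labelled low. The labels high and low therefore did not separate this ratio across the lines, and the genotype comparison was not matched for it. Between WTD with D7E and WTA with D7F, 2.37% of all probes and none of the 33 were called. At an unadjusted p under 0.05, 6, 4 and 4 of the 33 differed by genotype, by level and in the crossed comparison, against 6.70%, 7.91% and 14.3% of all probes. The 6 by genotype were Orc1, Gmnn, Mcm3, Pola1, Prim1 and Rpa1, each lower in the mutant lines.

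Other genes of the pathway were counted from lists that were also made with earlier results known. Of all tested probes, 8.85% fell and 6.41% rose in the mean of the lines. List counts near these shares do not set a list apart from the other probes. Of 20 probes for further replisome and origin genes, Msh6, a mismatch repair protein that travels with the fork, fell (difference -0.63, adjusted p = 0.0193). Top1, which relaxes the DNA ahead of the fork, rose (0.98, adjusted p = 0.0179), and the median of the 20 was -0.02. Of 30 probes for further nucleotide synthesis genes, 2 fell and 2 rose, with a median of 0.06. Dut, which removes dUTP, fell by 0.87 (adjusted p = 0.000550) and Samhd1, which breaks down deoxynucleotides, by 0.29 (adjusted p = 0.0491). Adsl, of purine synthesis, rose by 0.45 (adjusted p = 0.0117). The 2 probes of Ppat, also of purine synthesis, disagreed: one rose by 0.49 (adjusted p = 0.0479), and the other differed by -0.0042 (adjusted p = 0.991).

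Of 29 probes for regulators of S-phase entry, 2 fell and 4 rose, with a median of 0.01. Cks1b, a cofactor of cyclin-dependent kinases, fell by 1.17 (adjusted p = 0.000378), and Rbl1 (p107) by 0.32 (adjusted p = 0.0313). In the mean of the lines, Rb1, the retinoblastoma protein that restrains E2F, rose by 1.45 (adjusted p = 0.00127), and the repressor E2f6 by 0.36 (adjusted p = 0.0335). The kinase inhibitor Cdkn1c also rose in the mean (0.69, adjusted p = 0.00247), but its difference was 1.67 in WTD and 1.28 in D7E and -0.08 and -0.10 in WTA and D7F. Cdkn2c, another kinase inhibitor, rose in the mean (0.36, adjusted p = 0.0235), with 0.91 in WTA and 0.59 in D7F and 0.10 and -0.14 in WTD and D7E. Of 18 probes for mitosis genes, 6 fell and none rose by limma, with a median of -0.44. They were Ube2c (-1.39), Cks2 (-1.23), Cenpa (-1.16), Cdk1 (-0.85), Ccnb2 (-0.73) and Ncapd2 (-0.57), with adjusted p-values of 0.000296 to 0.0466. The mitosis median of a culture was -0.12 to 0.12 in IM2 and -0.71 to -0.27 in the transfected cultures.

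Markers of cell types moved between the same groups, and their part in the replication results was not tested. Of 36 probes for skeletal muscle differentiation, 11 rose and 1 fell, with a median of 0.45. Tmod4 (0.94, adjusted p = 0.000425), Mef2c (0.60, adjusted p = 0.00862) and Myf6 (0.54, adjusted p = 0.00384) were among those that rose in the mean of the lines. Tmod4 differed by -0.04 in WTD (adjusted p = 0.910) and by 0.86 to 1.49 in the other 3 lines. Myf6 rose in WTA (1.00) and D7F (0.78), and its differences of 0.16 in WTD and 0.23 in D7E did not pass the threshold. The probes of Neb disagreed (0.90 and -0.33 for the 2 that passed). The culture median of this list was -0.17 to 0.11 in IM2. It was 0.31 to 0.35 in D7F, 0.31 to 0.45 in D7E, 0.23 to 0.41 in WTD and 0.19 to 0.51 in WTA. Of 8 myoblast probes, those of Myod1 (0.31, adjusted p = 0.0308) and Pax7 (0.72, adjusted p = 0.0428) rose. Of 7 fibroblast probes, 4 fell: Fbln1 (-1.51), Col3a1 (-1.44), Col1a2 (-1.35) and Col1a1 (-1.22), with adjusted p-values of 0.000336 to 0.00501. The fibroblast culture median was 0.05 to 0.14 in IM2 and -1.44 to -0.49 in the transfected cultures. In the mean of the 4 lines, none of the 4 smooth muscle, 2 adipocyte and 2 endothelial probes passed the threshold by limma. In WTD alone, Acta2, a smooth muscle actin, rose by 0.75 (adjusted p = 0.0331). No leukocyte probe was tested. Ratios to a reference give no level, so the presence of a cell type cannot be read from them.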

How the data were processed

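Total RNA of 15 cultures was measured on 60 arrays. The deposited values are log ratios, taken as log10 because they stop exactly at -2 and 2. How the authors scanned, background-corrected and normalised the arrays, and why they set these limits: not given in the sources used here. The number of cultures limits the precision. A factor of 3.3219 turned them into log2 ratios. Those at a limit were treated as not measured, rows with identical values on every array were read as 1 probe, and both dye arrays of a culture were averaged, with both required. The dye of WTA culture 3 on part I was taken from the channel sources, which the titles contradict. The level of D7F culture 1 was taken from the titles, which 1 array description contradicts.

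Probes were named through the platform annotation, with current symbols by Entrez identifier. Each part was fitted alone with limma 3.58.1 in R 4.3.3 (lmFit, eBayes), with 5 lines in 1 model and no block. The fit was also run on simulated cultures with independent normal noise and no dye effect, which checks the code and not the calls above. P-values were adjusted by Benjamini-Hochberg over 4650 probes of part I and 5056 of part II together, for each of 9 comparisons. The labels give triplicate cultures and do not say how separate these were, so p-values measure the spread between these cultures. Same-numbered cultures of different lines did not deviate together (r -0.25 to 0.47, median 0.00, over 30 pairs), so the numbers were not taken to pair them.

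The genes and all lists were chosen with earlier results of these data known. Culture values are printed for each gene called in any comparison, and the others are given by counts and ranges. Lists of other replisome, nucleotide synthesis, S-phase entry, mitosis, skeletal muscle, myoblast, fibroblast, smooth muscle, adipocyte, endothelial and leukocyte genes were counted in the same fit. Alternatives covered the limits, array centring and scaling, the sign of the IM2 arrays, single dyes, how many cultures had to be measured, 6 poor arrays, a block and each culture left out.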

Additional observations from a re-analysis of the deposited data

Results flagged for a closer look

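Pola1, the catalytic subunit of polymerase alpha, was the replication gene whose difference from IM2 was unequal among the 4 transfected lines by a test of that difference (limma F test over the 4 lines, adjusted p = 0.0108). Its difference from IM2 was -1.78 in D7E, -1.13 in D7F, -0.77 in WTA and -0.30 in WTD. D7E rests on 2 of its 3 cultures, since culture 2 lay at the lower limit of the scale on its Cy3 array and was treated as not measured. Without D7E culture 1 or 3 the gene could not be tested.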

How the results depend on the processing

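The counts of called replication genes moved with several choices, and for none of them was the cause tested beyond what the setting itself removes. In the order mean of the 4 lines, WTA, WTD, D7E and D7F, the counts were 11, 10, 4, 11 and 9. They were 7, 3, 2, 7 and 4 with the values at the limits kept, 9, 3, 1, 7 and 4 from the Cy5 arrays alone, and 5, 4, 1, 4 and 2 from the Cy3 arrays alone. With 1 dye orientation enough they were 11, 4, 2, 6 and 6, and with arrays centred and scaled 13, 3, 9, 12 and 10. WTD fell to 2 with at least 1 culture of every line, and WTA to 5 with the 6 poor arrays left out. Poor arrays had over 20% of filled values at the limits or over 40% of rows empty. Among them were both part I arrays of IM2 culture 1. On part II, they included the Cy3 array of IM2 culture 2 and the Cy5 array of IM2 culture 3. The others were the Cy3 arrays of WTA culture 1 on both parts. The poor arrays thus lay mostly in IM2, against which every fall was measured. The sign of the IM2 arrays turned moved the median difference from -0.34 to -0.50.

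The mutant comparison went from 1 gene to 0 with the limits kept, with centring and scaling, with either dye alone, with 1 dye orientation enough, with probes measured in all 15 cultures and with the replicate block. The F test among the 4 lines went to 0 with the limits kept, the Cy5 arrays alone, 1 dye enough and all 15 cultures required, which by construction leaves out Pola1. The crossed comparison gave 1 with all 15 cultures required. With the replicate block the counts against IM2 were 10, 8, 4, 11 and 9, and the block ended no other count.

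Leaving out 1 culture at a time gave 7 to 12 genes for the mean of the lines. Among single lines, D7F gave 5 to 9, D7E 5 to 13, WTD 2 to 5 and WTA 4 to 12. The mutant comparison, the F test and the crossed comparison gave 0 to 1, the comparison of levels 0, and the median -0.39 to -0.28. The low counts came without WTA culture 1 or IM2 culture 1 for WTA (4 each), D7E culture 1 for D7E (5) and IM2 culture 1 or D7F culture 2 for D7F (5 each).

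The calls of Cdt1, Rfc4 and Rrm2 in the mean of the 4 lines held under all 26 alternatives, with adjusted p-values of at most 0.0331, 0.0443 and 0.00931. Gmnn was lost with the limits kept, Mcm4 with the Cy3 arrays alone, Mcm3 and Pola1 with either of these, and Pold1, Rfc5 and Rpa3 with either dye alone, Pold1 and Rfc5 also with the poor arrays left out. Mcm5 was lost in 16 of 26. No difference of a called gene changed sign. The counts above include 1 gene called higher in the mean of the lines with the Cy5 arrays alone (Pola2, 1.51), with 1 culture per line enough (Rpa2) and without IM2 culture 2 (Mcm7).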
